A study of Homo sapiens with 20 samples.

Results

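The genes described here are 39 spindle, chromosome condensation and cytokinesis genes, measured in LNCaP cells, an established androgen-responsive human prostate cancer line. They were listed by name for their known function and matched to the array by gene symbol, with the brightest single-symbol transcript cluster standing for each gene. All 39 were measured, among 18417 genes in all, and none was left out by a filter on low values. By role, 15 act in spindle assembly or on microtubules, 14 in chromosome condensation or chromatin, 7 in cytokinesis and 3 elsewhere in the cell cycle.

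RNA was measured on 20 arrays in 7 groups, with 3 arrays in every group except early S, which had 2. The CDT group spent 72 h in the medium labelled CDT, which is steroid-deprived, and then 3 h with ethanol. The CDT+DHT group had the same 72 h and then 3 h with dihydrotestosterone (DHT, an androgen) at 10 nM. The 5 arrests were made in hormone-proficient medium, each with 10 nM DHT present over its final 3 h. Early G1 was the label for 0.5 µM PD-0332991, a CDK4/6 inhibitor, over 24 h, and late G1 for 5 µg/mL roscovitine, an inhibitor of several CDKs, over 24 h. Early S was the label for 2 µg/mL aphidicolin, a DNA polymerase inhibitor, over 24 h, and late S for 1 mM hydroxyurea, which depletes deoxynucleotides, over 24 h. G2/M was the label for 15 h in 2 µg/mL aphidicolin, its removal, and 9 h in 50 ng/mL nocodazole, which depolymerises microtubules. The phase names are those of the labels, and each arrest is also a different drug, so phase and drug cannot be told apart. Arrested cells without DHT and untreated cycling cells were not analysed here. CDT and CDT+DHT are called unarrested here because no arresting drug was used. Their cell cycle phases were not examined, so they are not taken as cycling cells. Both groups differ from the arrests in medium as well as in drug. Medium and arrest therefore cannot be told apart in any comparison with CDT or CDT+DHT.

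The mitotic spindle is built by proteins that nucleate, bundle and lengthen microtubules around chromosomes and at the poles. Condensins and topoisomerase II compact and disentangle the chromosomes, and the central spindle and contractile ring then divide the cell. Most of these genes are transcribed late in the cell cycle, peaking in G2 and mitosis, and in G1 and quiescent cells many are held down by the DREAM complex, which binds a promoter element called the cell cycle genes homology region.

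Because the members are known for this shared pattern, their promoters are shown before their levels. Promoters of 300 bases (250 before and 50 after the annotated start) were taken from RefSeq for GRCh38.p14, and 32 of the 39 members had an entry. RACGAP1, TPX2, HMGB2, NCAPH2, TROAP, FAM83D and CDCA2 had none. For 6 members with an entry the promoter is printed from 200 bases before the start to 30 bases after it, 5′ to 3′ on the strand of the gene (they passed the test below in 3 or more comparisons). Capitals mark the core of the homology region in either of its spellings (TTTGAA, with TTTAAA as the variant), the CCAAT box, and a pair of E2F-type sites (TTCCCGC and, longer, TTTGGCGC), on both strands.
CDCA3: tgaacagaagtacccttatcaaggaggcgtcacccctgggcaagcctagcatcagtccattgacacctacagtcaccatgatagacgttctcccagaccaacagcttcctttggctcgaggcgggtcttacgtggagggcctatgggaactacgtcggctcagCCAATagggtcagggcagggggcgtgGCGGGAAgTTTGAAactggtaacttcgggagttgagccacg
NUSAP1: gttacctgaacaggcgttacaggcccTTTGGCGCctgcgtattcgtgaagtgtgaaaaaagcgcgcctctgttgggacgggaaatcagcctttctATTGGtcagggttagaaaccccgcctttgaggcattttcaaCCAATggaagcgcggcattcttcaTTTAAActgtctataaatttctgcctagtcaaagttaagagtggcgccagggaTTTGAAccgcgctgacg
TOP2A: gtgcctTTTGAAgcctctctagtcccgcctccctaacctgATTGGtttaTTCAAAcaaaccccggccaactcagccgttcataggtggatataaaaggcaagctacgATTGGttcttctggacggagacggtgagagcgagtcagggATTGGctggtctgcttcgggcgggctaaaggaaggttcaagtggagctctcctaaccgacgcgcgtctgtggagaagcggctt
MKI67: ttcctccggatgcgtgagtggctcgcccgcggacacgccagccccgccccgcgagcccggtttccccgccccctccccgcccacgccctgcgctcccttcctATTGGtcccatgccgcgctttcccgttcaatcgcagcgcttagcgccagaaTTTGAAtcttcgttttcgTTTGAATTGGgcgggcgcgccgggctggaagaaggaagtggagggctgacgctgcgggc
PRC1: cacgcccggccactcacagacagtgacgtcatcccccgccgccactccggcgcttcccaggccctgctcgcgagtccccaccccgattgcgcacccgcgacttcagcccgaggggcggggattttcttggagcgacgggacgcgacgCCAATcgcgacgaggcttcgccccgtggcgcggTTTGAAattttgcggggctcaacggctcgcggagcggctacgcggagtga
TACC3: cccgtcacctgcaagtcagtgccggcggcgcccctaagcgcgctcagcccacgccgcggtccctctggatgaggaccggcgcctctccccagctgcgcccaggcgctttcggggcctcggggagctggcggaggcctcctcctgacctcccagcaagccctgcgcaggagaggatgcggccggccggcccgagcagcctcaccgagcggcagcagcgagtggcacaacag

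These windows lie at chr12:6851257-6851486 on the minus strand for CDCA3, chr15:41332681-41332910 on the plus strand for NUSAP1 and chr17:40417867-40418096 on the minus strand for TOP2A. Those of MKI67, PRC1 and TACC3 lie at chr10:128126394-128126623 on the minus strand, chr15:90994506-90994735 on the minus strand and chr4:1720431-1720660 on the plus strand. Each spans upstream sequence and the first transcribed bases. In CDCA3 a TTTGAA spans the start, 1 base after a TTCCCGC read on the opposite strand, and in PRC1 a TTTGAA follows a CCAAT. In MKI67 the second TTTGAA runs into an ATTGG, the reverse of CCAAT, so the last base of one is the first of the other. TACC3 held none of the 5 motifs in the printed window.

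TTTGAA occurred in 25 of the 32 members with a promoter (78.1%), against 15.9% of 15842 protein-coding genes. A gene with several promoter entries counted if any of them held a match, as for NCAPD3, whose match lies in entry 2. Within 50 bases of the start the shares were 65.6% of the members (21 of 32) and 4.72% of all genes. CCAAT occurred in 22 members (68.8%, against 42.1%), and both motifs together in 19 (59.4%, against 8.17%). The other motifs were less common among the members, with TTTAAA in 7 (21.9%, against 12.8%), TTCCCGC in 5 (15.6%, against 10.5%) and TTTGGCGC in 1, NUSAP1 (3.12%, against 1.09%). TTTGAA was present in 11 of the 13 members with a promoter that passed at least 1 test below and in 14 of the other 19. CDCA5, CKAP2, GAS2L3, LMNB1, NCAPH, PSRC1 and TACC3 had a promoter entry without it. A match describes the letters in the window and was not tested as a binding site.

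**Figure D1:**
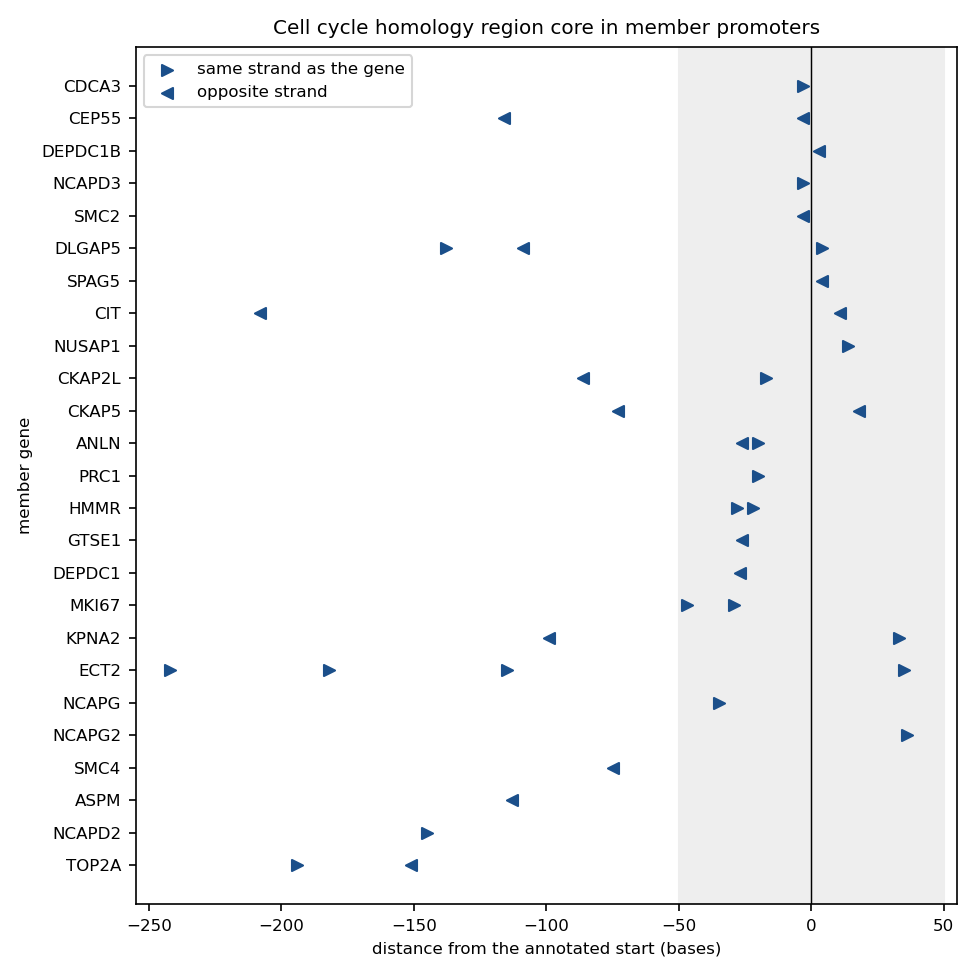
Position of each match to the homology region core (the first of its 2 spellings above) in the promoters of the 25 members with one. The horizontal axis is the distance from the annotated start in bases, and triangles point along the strand of the match. In 21 of the 25 genes a match lies within 50 bases of the start (grey band), and SMC4, ASPM, NCAPD2 and TOP2A have theirs farther upstream.

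Values below are levels on the log2(intensity + 1) scale, called log2 levels, and differences between group means on that scale. Genes were tested with limma across all 18417 genes, two-sided, and passed at a Benjamini-Hochberg adjusted p below 0.05. No label states that the replicates came from separate cultures, and the p-values therefore reflect array-to-array spread, which may be technical. Luminal prostate markers marked the line, with 6 of 9 listed genes measured at mean log2 levels of 5.85 to 9.11, while 3 leukocyte, 4 stromal and 2 basal markers ran from 2.23 to 3.98. Summed log2 levels of the basal markers were 4.82 to 6.25 in G2/M and 5.96 to 8.82 elsewhere, those of the stromal markers 8.12 to 12.09 and 10.03 to 17.08, and those of the leukocyte markers 8.79 to 10.23 and 3.39 to 9.4, and their part in the results was not tested. The main axis of within-group variation held 29.1% of that variation. At its high end, 4 arrays are said below to stand apart: CDT replicate 1, CDT+DHT replicate 3, early G1 replicate 2 and late S replicate 1. They had the highest scores of their groups (1.28 to 2.08) and the lowest mean member level of their groups. The low end was not set apart, though late S replicate 2 scored -1.91 there and had the highest mean member level of its group.

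Across the 7 groups, the members were low in late G1 and high in G2/M. Their mean log2 level per array was 2.80 ± 0.23 (SD, n = 3) in late G1, 3.52 ± 0.38 (n = 3) in CDT+DHT and 3.96 ± 0.74 (n = 3) in CDT. It was 4.33 ± 0.84 (n = 3) in early G1, 4.33 ± 1.00 (n = 3) in late S, 4.66 ± 0.65 (n = 2) in early S and 5.46 ± 0.13 (n = 3) in G2/M. The late G1 arrays (2.64 to 3.06) lay below all others, just under the lowest CDT+DHT array (3.08), and the lowest G2/M array was level with the highest late S array (5.33). Between these ends, CDT, early G1, early S and late S overlapped one another, and CDT+DHT overlapped CDT, early G1 and late S. In these bulk RNA samples, fewer cells expressing the genes and less RNA per cell cannot be told apart.

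**Figure D2:**
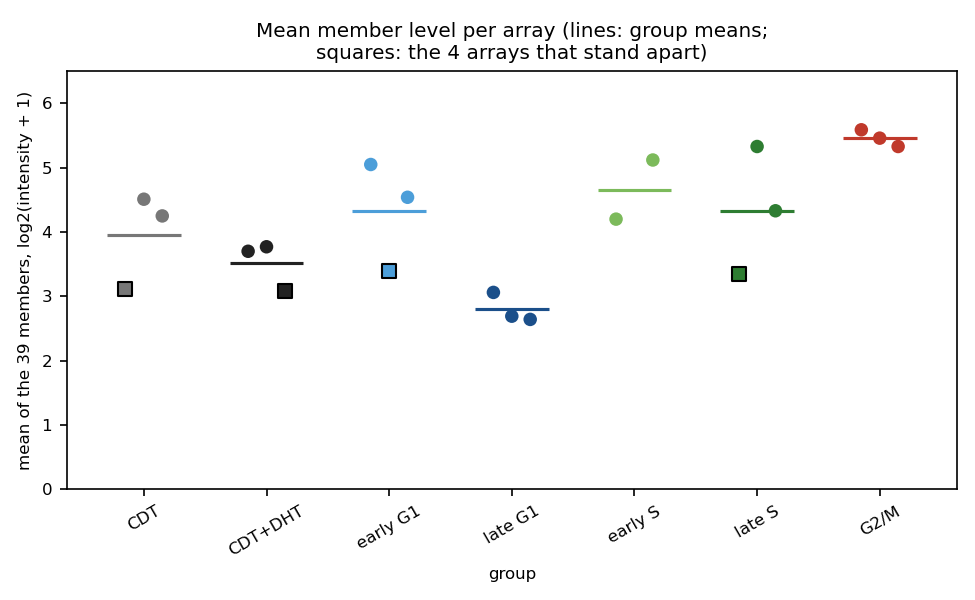
Mean of the 39 members on each array, on the log2(intensity + 1) scale, by group; points are arrays, lines are group means, and squares with a black edge are the 4 arrays that stand apart. The late G1 arrays (2.64 to 3.06) lie under all others, the G2/M arrays (5.33 to 5.59) lie level with or above the highest of the others, and each square is the lowest array of its group.

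Gene by gene, 32 of the 39 members had their lowest arrest mean in late G1, where 26.5% of all genes did, and 32 had their highest in G2/M, where 17.8% did. Over all 7 groups, 24 were lowest in late G1 (19.7% of all genes), 9 were lowest in CDT+DHT (18.6%) and 30 were highest in G2/M (13.4%). The span from lowest to highest group mean had a median of 3.33 over the members, against 1.54 over all genes, and was at least 3 in 25 of them. It was 5.74 in TOP2A, 5.10 in CKAP5 and 4.98 in MKI67, the widest with a constant of 1, while with 16 the widest were NUSAP1 (3.55), TPX2 (3.30) and TOP2A (3.15), and the medians were 1.40 over the members and 0.55 over all genes. FAM83D (0.72), DEPDC1 (0.75), TROAP (1.16), GAS2L3 (1.21) and NCAPH2 (1.32) varied least. Many late G1 values lay near 0, with 16 of 117 member values under 1 there against 1 in G2/M, so differences depend on the constant added before the log, and with a constant of 16 each called member difference was smaller.

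**Figure D3:**
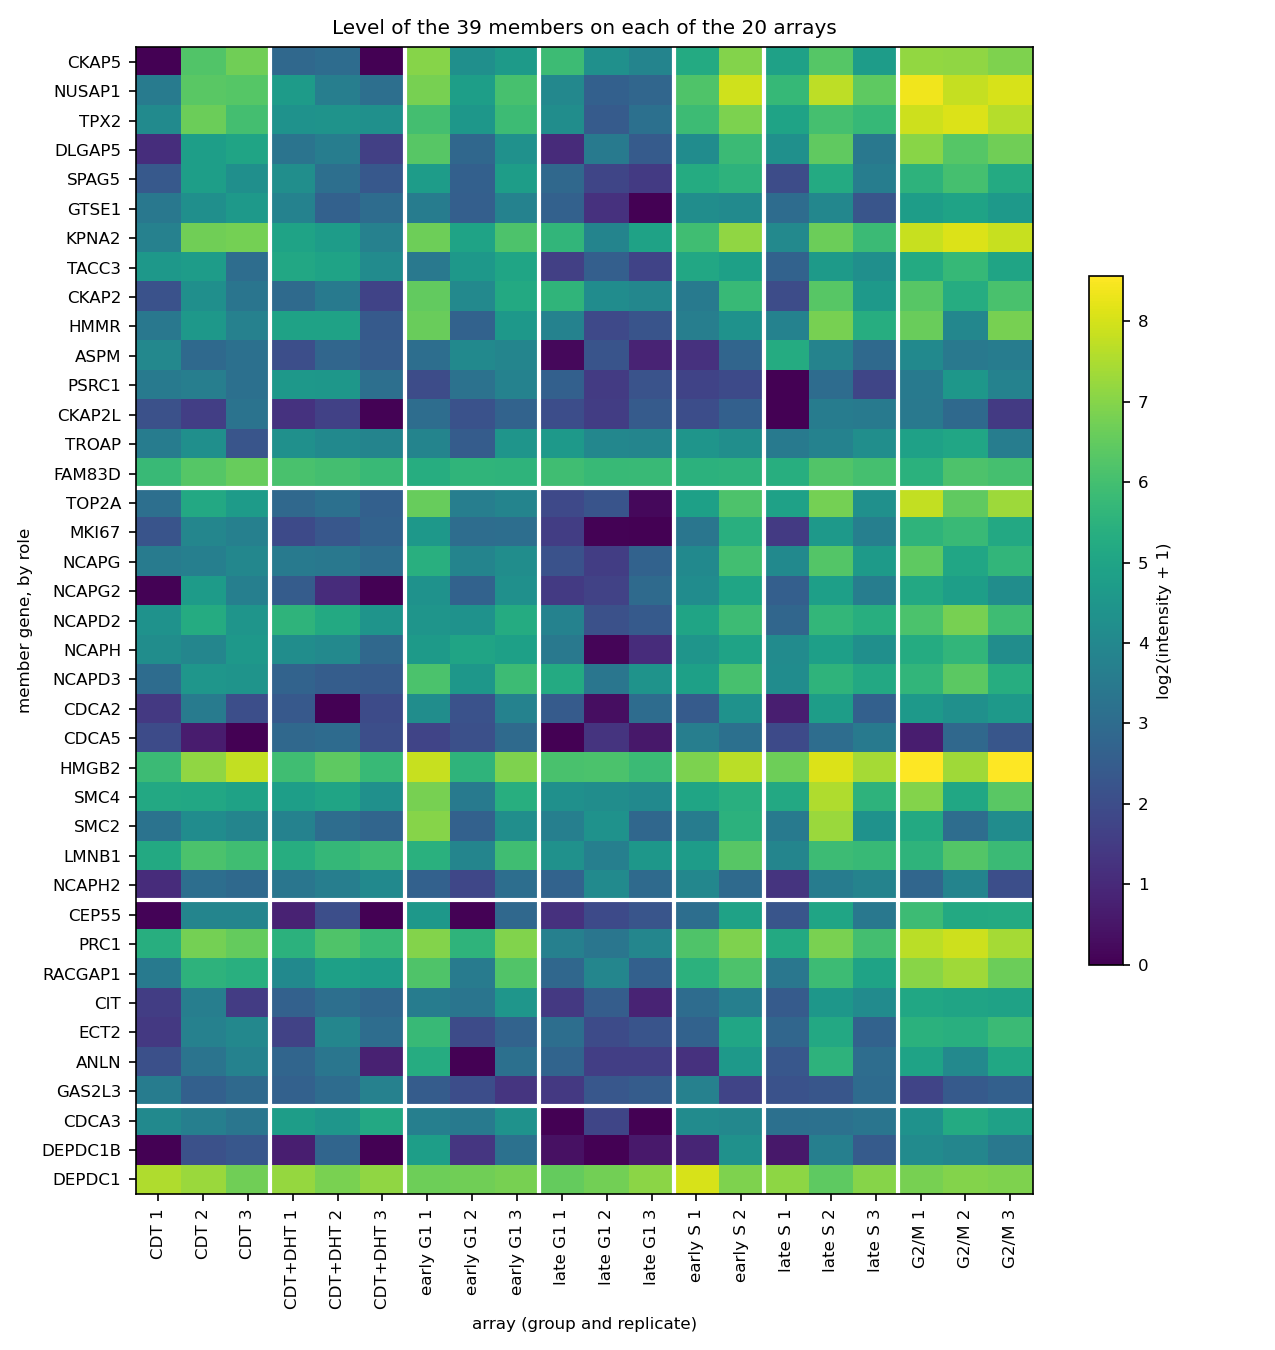
Log2(intensity + 1) of each of the 39 members (rows, by role: spindle, chromosome, cytokinesis, other, and within a role by the span of group means) on each of the 20 arrays (columns, by group). Rows differ in level partly through their probes, so colours are to be read along a row: late G1 columns are dark and G2/M columns bright in most rows, while FAM83D and DEPDC1 keep nearly 1 colour throughout.

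Set against the mean of the other 4 arrests, late G1 had 13 of the 39 members lower and none higher. Over all genes 0.706% passed, and lower calls made up 0.69% (127 of 18417). The median member difference was -2.08, against -0.09 over all genes (-0.84 and -0.04 with a constant of 16), and 36 of the 39 lay below 0. The members that fell were 5 of 15 spindle genes, 5 of 14 chromosome genes, 2 of 7 cytokinesis genes and CDCA3. Without the 4 arrays that stand apart, 23 passed. Of these 4, early G1 replicate 2 and late S replicate 1 had the lowest member level of their groups. Leaving them out raises the other arrests by construction. Without late G1 replicate 3 or replicate 2, 3 and 8 passed. Of the 13, 8 had every late G1 array below every array of the other arrests (1.28% of all genes).

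The direct comparison of G2/M with late G1 shares the late G1 arrays with the one above. It had 13 members higher in G2/M and none lower, where 0.483% of all genes passed and higher calls made up 0.451%, and the median member difference was 3.12 against 0.07 over all genes (1.36 and 0.02 with a constant of 16). Arrays of the 2 groups did not overlap in 30 of the 39 members, all higher in G2/M (11.7% of all genes). With ASPM in the first list and RACGAP1 in the second, 12 genes stood in both. Without the 4 arrays that stand apart, which lie in other groups and alter only the spread, 21 passed. With only the 2 groups in the fit 6 passed. Without G2/M replicate 1, 2 or 3 or late G1 replicate 3 the count was 6, 7, 7 and 7.

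**Figure D4:**
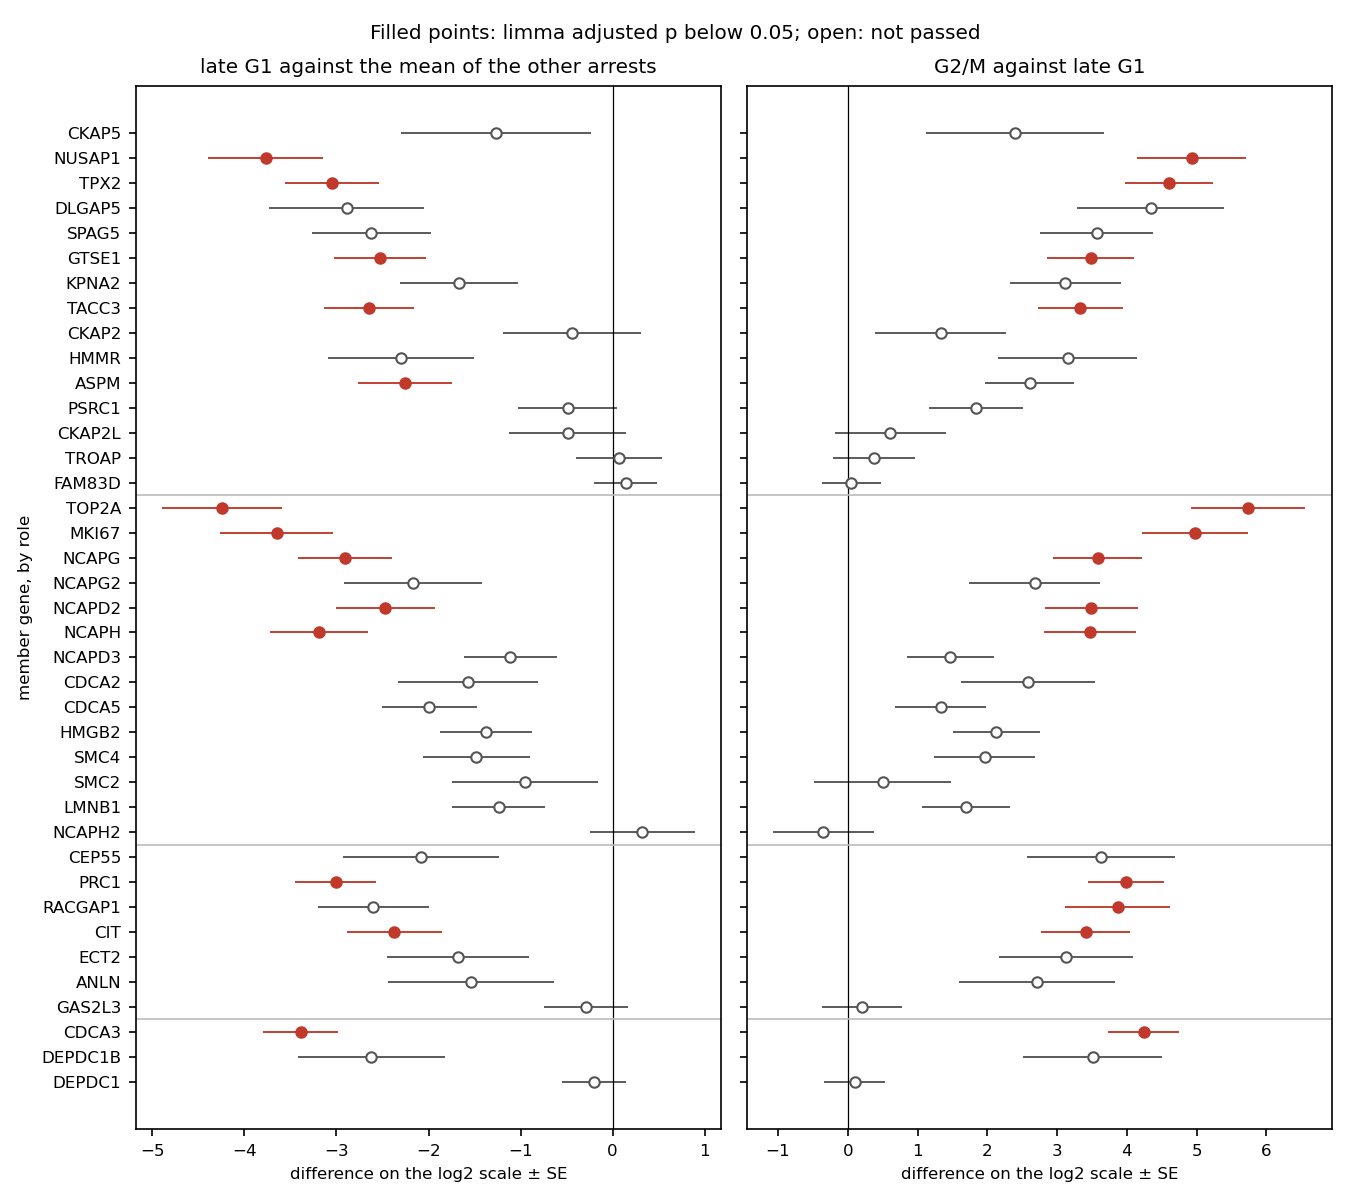
Difference of each member on the log2 scale with its standard error, for late G1 against the mean of the other arrests (left) and G2/M against late G1 (right), by role. Filled points passed at an adjusted p below 0.05: 13 on each side, all below 0 on the left and all above 0 on the right.

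Among the spindle genes, TPX2, which activates Aurora A and nucleates microtubules near chromosomes, had log2 levels of 4.18, 2.45 and 3.17 in late G1 and 7.91, 8.11 and 7.61 in G2/M. It stood at 6.0, 4.53 and 5.87 in early G1, 5.87 and 6.86 in early S, and 4.96, 6.03 and 5.72 in late S. Its unarrested levels were 4.11, 6.65 and 5.99 in CDT and 4.35, 4.40 and 4.28 in CDT+DHT. Every G2/M array was above every other array of the series, and the late G1 arrays were below those of the other arrests. TPX2 was lower in late G1 than in the other arrests, with a difference of -3.05 ± 0.51 (SE, limma adjusted p = 0.00514). G2/M exceeded late G1 by 4.61 ± 0.63 (adjusted p = 0.00117). With a constant of 16 these were -1.96 and 3.30, and both passed.

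NUSAP1, which bundles spindle microtubules, read 4.01, 2.62 and 2.82 in late G1, 8.38, 7.81 and 8.04 in G2/M, and 6.81, 4.79 and 6.08 in early G1. Early S arrays gave 6.21 and 7.95, and late S arrays 5.75, 7.72 and 6.43. The unarrested levels were 3.56, 6.37 and 6.30 in CDT and 4.71, 3.66 and 3.11 in CDT+DHT. The late G1 arrays lay below those of every other arrest but overlapped the unarrested arrays, and an early S array reached into the G2/M range. Its late G1 difference from the other arrests was -3.77 ± 0.62 (adjusted p = 0.00511), and G2/M was 4.93 ± 0.78 above late G1 (adjusted p = 0.00367).

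TACC3, a stabiliser of kinetochore fibres, had 1.63, 2.60 and 1.73 in late G1 against 5.23, 5.72 and 5.00 in G2/M, and 2.68, 4.66 and 4.26 in late S. Its late G1 arrays stayed below those of all other groups, by little for replicate 2 against late S replicate 1. The difference from the other arrests was -2.65 ± 0.49 (limma adjusted p = 0.0116). GTSE1, a microtubule-binding partner of EB1, was 2.67, 1.22 and 0.01 in late G1 and 4.75, 4.96 and 4.63 in G2/M (difference from the other arrests -2.53 ± 0.50, adjusted p = 0.0193). Late G1 replicate 1 of GTSE1 lay above early G1 replicate 2 (2.6) and late S replicate 3 (2.26). ASPM, a spindle pole protein, had 0.20, 2.23 and 0.86 in late G1, and it was highest in late S (5.26, 3.84 and 2.93). Its late G1 arrays overlapped early S (1.23 and 2.80), and its call was marginal (-2.26 ± 0.51, adjusted p = 0.0457), passing in 6 of 11 other settings.

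The other 10 spindle genes did not pass against the other arrests. SPAG5 (astrin, at kinetochores and poles; -2.62 ± 0.65, limma adjusted p = 0.0666), DLGAP5 (HURP, on kinetochore fibres; -2.89 ± 0.84, 0.144) and HMMR (-2.30 ± 0.79, 0.253) had differences as large as those that passed, with larger errors. KPNA2, an importin that carries TPX2, gave -1.67 ± 0.64. CKAP5, a microtubule polymerase, was uneven within groups: its CDT arrays read 0.02, 6.22 and 6.72, its CDT+DHT arrays 2.90, 3.04 and 0.01, and its G2/M arrays 7.18, 7.14 and 6.92. The 2 arrays near 0 were among the 4 that stand apart. Its difference between G2/M and CDT+DHT, 5.10 ± 1.28, was the largest of the members there and did not pass (adjusted p = 0.0799).

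PSRC1, which acts on spindle microtubule dynamics, followed another order. Its highest group mean was in CDT+DHT (4.56, 4.52 and 3.13) and its lowest in late S (0.01, 3.03 and 1.80). That minimum rests on the 0.01 of late S replicate 1, an array that stands apart. With a constant of 16 the lowest group was early S. Both early S arrays (1.73 and 1.93) lay below the G2/M arrays (3.53, 4.53 and 3.79), a difference of 2.12 that did not pass. FAM83D, which brings a kinesin to the spindle, stayed between 5.33 and 6.56 on all 20 arrays, and TROAP, a spindle assembly protein, between 2.25 and 5.06. Their differences between G2/M and late G1 were 0.05 ± 0.42 and 0.38 ± 0.59.

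For TOP2A, the topoisomerase that untangles sister chromatids, late G1 arrays read 1.90, 2.21 and 0.19, and G2/M arrays 7.79, 6.46 and 7.29. Early G1 arrays gave 6.56, 3.65 and 3.86, early S arrays 4.87 and 6.18, and late S arrays 4.89, 6.76 and 4.29. In CDT the levels were 3.12, 5.16 and 4.71, and in CDT+DHT 2.90, 3.15 and 2.61. All late G1 arrays were below all others of the series, and early G1 replicate 1 and late S replicate 2 reached into the G2/M range. TOP2A was lower in late G1 than in the other arrests by a difference of -4.24 ± 0.65 (limma adjusted p = 0.00271) and higher in G2/M than in late G1 by 5.74 ± 0.82 (adjusted p = 0.00165). With a constant of 16 these were -1.98 and 3.15, and both passed.

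MKI67, the Ki-67 protein that coats mitotic chromosomes and is used as a proliferation marker, read 1.54, 0.05 and 0.01 in late G1 and 5.56, 5.81 and 5.17 in G2/M. It read 4.56, 3.06 and 3.10 in early G1, where the CDK4/6 inhibitor was used, and 2.21, 3.93 and 3.72 in CDT. Late S replicate 1 (1.45), an array that stands apart, overlapped the late G1 range, while the other late S arrays (4.59 and 3.70) did not. Its difference was -3.65 ± 0.61 in late G1 against the other arrests (adjusted p = 0.00514) and 4.98 ± 0.76 in G2/M against late G1 (adjusted p = 0.00307).

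Condensin I and condensin II share the SMC2 and SMC4 subunits and differ in the other 3. All 3 subunits specific to condensin I fell in late G1 against the other arrests. NCAPH had 3.46, 0.11 and 1.1 in late G1 and 5.28, 5.62 and 4.19 in G2/M (-3.19 ± 0.53, limma adjusted p = 0.00514), and NCAPG 2.17, 1.56 and 2.70 against 6.45, 5.07 and 5.65 (-2.91 ± 0.51, adjusted p = 0.00725). NCAPD2 had 3.81, 2.13 and 2.42 in late G1 and 6.13, 6.80 and 5.89 in G2/M (-2.47 ± 0.54, adjusted p = 0.0348). Late G1 arrays of NCAPH and NCAPG were below those of the other arrests, and those of NCAPD2 overlapped late S replicate 1 (2.81).

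Of the condensin II subunits, NCAPG2 (-2.17 ± 0.75, limma adjusted p = 0.260), NCAPD3 (-1.11 ± 0.50, 0.431) and NCAPH2 (0.32 ± 0.57, 0.914) did not pass, nor did SMC2 (-0.95 ± 0.79) or SMC4 (-1.48 ± 0.58). Whether the complexes differ in their response was not tested. NCAPD3 stood out in another comparison: it read 2.71, 2.51 and 2.46 in CDT+DHT and 5.64, 6.39 and 5.35 in G2/M, with 5.24, 3.35 and 4.39 in late G1. The CDT+DHT arrays were below all others of the series. NCAPH2 was the 1 member lower in G2/M than in late G1 (-0.35 ± 0.72), with overlapping arrays.

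CDCA5 (sororin, which protects cohesion between sister chromatids) read 0.01, 1.30 and 0.56 in late G1, 3.66 and 3.15 in early S, and 0.69, 2.88 and 2.28 in G2/M. Its highest group mean was thus in early S and not in G2/M, and its late G1 difference from the other arrests was -1.99 ± 0.52 (limma adjusted p = 0.0918). CDCA2 (Repo-Man, a phosphatase-targeting subunit), HMGB2 (a chromatin protein) and LMNB1 (lamin B1) gave -1.57 ± 0.76, -1.38 ± 0.50 and -1.24 ± 0.50, and none passed.

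In the cytokinesis group, PRC1, which bundles the central spindle, had 3.74, 3.35 and 3.93 in late G1, 7.69, 7.91 and 7.40 in G2/M, and 6.97, 5.57 and 6.94 in early G1. Early S gave 6.19 and 6.89, and late S 5.21, 6.85 and 5.99. CDT arrays read 5.38, 6.77 and 6.54, and CDT+DHT arrays 5.51, 6.2 and 5.77. All late G1 arrays were below, and all G2/M arrays above, every other array. The late G1 difference of -3.01 ± 0.44 (limma adjusted p = 0.0018) passed in all 12 other settings and after each of the 20 arrays was left out, as did the difference of G2/M against late G1 (3.99 ± 0.55, adjusted p = 0.00117).

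CIT (citron kinase, at the midbody) had 1.42, 2.51 and 0.85 in late G1 and 5.09, 4.99 and 4.94 in G2/M. Late S replicate 1 (2.47) overlapped the late G1 arrays, and the difference from the other arrests was -2.37 ± 0.52 (limma adjusted p = 0.0348). RACGAP1, a centralspindlin subunit, had 2.86, 3.92 and 2.62 in late G1 and 7.03, 7.34 and 6.64 in G2/M. It passed in G2/M against late G1 (3.87 ± 0.75, adjusted p = 0.0207) and sat at the threshold, without passing, against the other arrests (-2.60 ± 0.60). CEP55 (abscission), ECT2 (which activates RhoA at the furrow) and ANLN (anillin, the ring scaffold) had G2/M arrays above all late G1 arrays, by 3.63 ± 1.06, 3.13 ± 0.96 and 2.71 ± 1.12, and did not pass. GAS2L3, which links actin and microtubules, differed by 0.20 ± 0.57.

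CDCA3, a trigger of mitotic entry that recruits a ubiquitin ligase, passed in 5 comparisons, more than any other member. Late G1 arrays read 0.01, 1.79 and 0.01. The other arrests gave 3.70, 3.52 and 4.37 (early G1), 4.12 and 3.98 (early S), 3.16, 3.20 and 3.32 (late S), and 4.38, 5.24 and 4.90 (G2/M). Unarrested levels were 4.07, 3.69 and 3.37 in CDT and 4.76, 4.51 and 5.16 in CDT+DHT. Late G1 lay below all 17 other arrays, and the CDT+DHT mean (4.81) was close to that of G2/M (4.84). The difference from the other arrests was -3.39 ± 0.41 (limma adjusted p = 0.000245). It became -0.92 with 16 in place of 1 added before the log, and still passed (adjusted p = 0.00301). DEPDC1B, a regulator of adhesion before mitosis, read 0.37, 0.01 and 0.60 in late G1 and 4.14, 3.93 and 3.44 in G2/M, and did not pass (3.51 ± 1.00, adjusted p = 0.160). DEPDC1 stayed between 6.43 and 8.05.

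**Figure D5:**
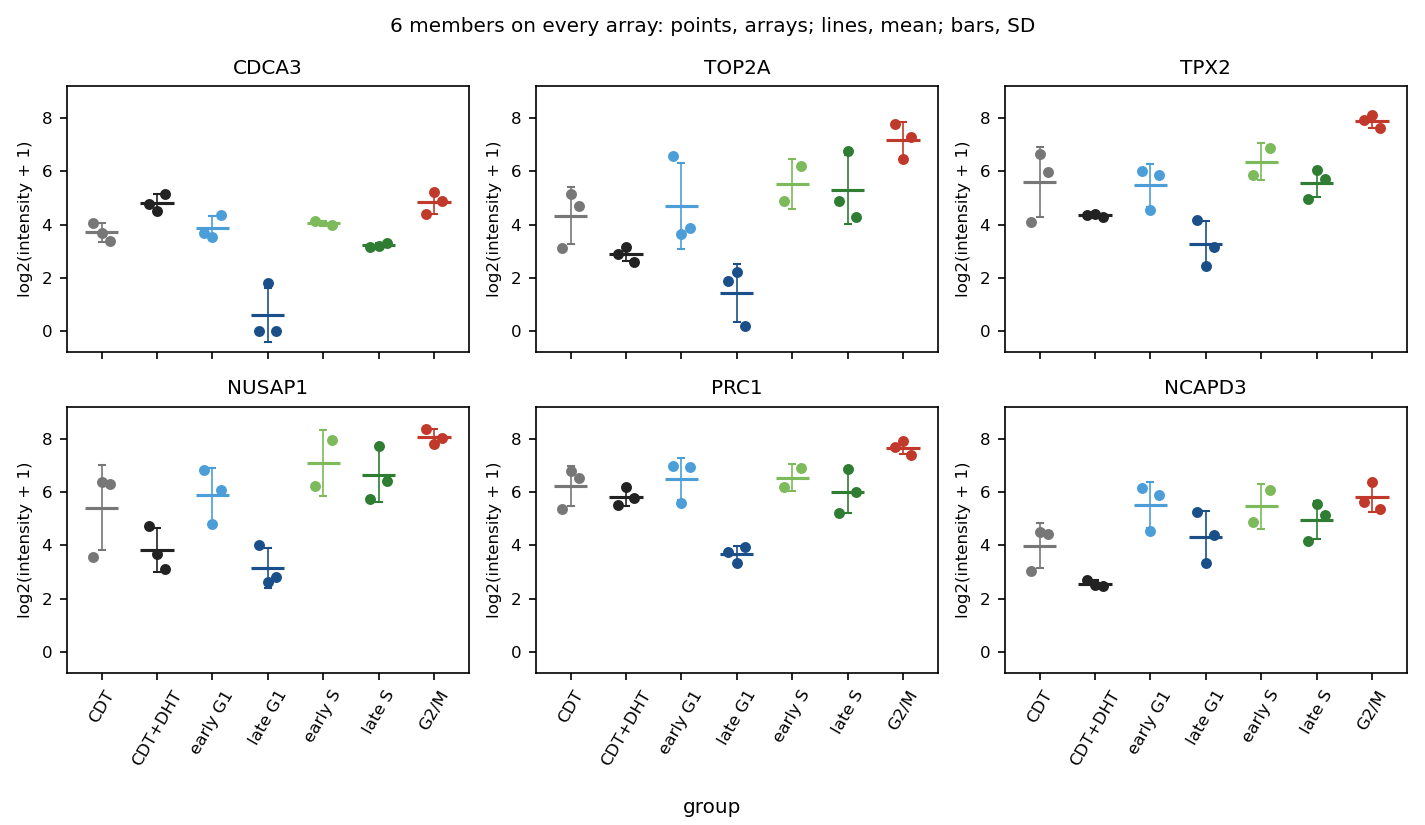
Log2(intensity + 1) of CDCA3, TOP2A, TPX2, NUSAP1, PRC1 and NCAPD3 by group; points are arrays, lines group means and bars the SD (2 arrays in early S, 3 elsewhere). CDCA3, TOP2A and PRC1 have every late G1 array under all other arrays, whereas NCAPD3 has every CDT+DHT array under all others.

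Against the unarrested groups, few members passed. In late G1 against CDT, 1 member passed, CDCA3 (-3.11 ± 0.51, limma adjusted p = 0.0121), where 0.103% of all genes passed and lower calls made up 0.0977%. That call was lost without any one of CDT replicates 1 and 2 and late G1 replicates 1 and 3, without the 4 arrays that stand apart, with a constant of 16 and with only the 2 groups in the fit. The median member difference was -1.06 (-0.15 over all genes), and 14 members had every late G1 array below CDT (10.1% of all genes). In late G1 against CDT+DHT, CDCA3 (-4.21 ± 0.51, adjusted p = 0.000548) and TACC3 (-2.76 ± 0.61, adjusted p = 0.0487) passed, where 0.516% of all genes passed and lower calls made up 0.489%. TACC3 kept its call in 6 of the 20 fits that left out an array, and with only the 2 groups in the fit neither passed. The median member difference from CDT+DHT was -0.84 (-0.07 over all genes), with 29 members below 0 and 10 above. Among those above, NCAPD3 (1.76 ± 0.62), CKAP5 (2.69 ± 1.28) and CKAP2 (1.85 ± 0.94) did not pass.

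G2/M exceeded CDT+DHT in 4 members, where 0.44% of all genes passed and higher calls made up 0.271%. These were TOP2A (4.29 ± 0.82), NUSAP1 (4.25 ± 0.78), TPX2 (3.53 ± 0.63) and NCAPD3 (3.23 ± 0.62), each at a limma adjusted p of 0.0301. The median member difference was 2.12 against -0.05, and 26 members had all G2/M arrays above CDT+DHT (15.1% of all genes). All 4 calls were lost without any one array of the 2 groups, while 9 passed without the 4 arrays that stand apart and 10 without CDT replicate 1. G2/M against CDT passed for 0 members by limma (0.109% of all genes), with 20 members and 7.05% of all genes at an unadjusted p below 0.05 and a member median of 1.65. There, 23 members had all G2/M arrays above CDT (6.63% of all genes). CIT was nearest to passing (2.76 ± 0.64, adjusted p = 0.129).

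After 3 h of DHT in the CDT medium 0 members passed by limma, as did 0.0% of all genes. At an unadjusted p below 0.05 stood 3 of the 39 members (CDCA5, CDCA3 and NCAPD3) and 6.86% of all genes, a share near that of the members. The median difference was -0.51 (-0.10 over all genes), with 29 members below 0. The early G1, early S and late S arrests passed for 0 members against CDT (0.00543%, 0.0326% and 0.0977% of all genes), with 4, 3 and 3 of 39 members at an unadjusted p below 0.05, where 5.11%, 5.57% and 5.94% of all genes were. Against CDT+DHT they also passed for 0 members (0.0%, 0.00543% and 0.0706% of all genes), with 7, 12 and 11 at an unadjusted p below 0.05 (8.07%, 7.62% and 10.2% of all genes) and medians of 0.80, 1.01 and 1.02.

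Against the mean of the other arrests, early G1, early S and late S had 0 members passing by limma (0.0%, 0.0% and 0.0271% of all genes), with 0, 1 and 1 at an unadjusted p below 0.05 (2.47%, 3.88% and 6.92% of all genes). The early G1 median was 0.01, with 20 of 39 members above 0, and its sign turned in 14 other fits (range over all fits -0.28 to 0.48). G2/M against the other arrests also passed for 0 members (0.0271% of all genes), with 22 members and 5.0% of all genes at an unadjusted p below 0.05 and a member median of 1.66. In 9, every G2/M array was above every other arrest array (0.353% of all genes), and TPX2 came nearest (2.71 ± 0.51, adjusted p = 0.0733). G2/M passed for 0 members against early G1 (0.00543% of all genes; 12 at an unadjusted p below 0.05, against 3.67% of all genes, median 1.13) and against early S (0.0%; 4, against 3.42%, median 0.94). The moderated F test among the 5 arrests passed for 6 members, where 0.255% of all genes passed: CDCA3 (adjusted p = 0.0029), PRC1 (0.0138), TPX2 (0.0166), TOP2A (0.0184), MKI67 (0.0286) and NUSAP1 (0.0332). In all, 15 members passed at least 1 of the 20 comparisons and 24 passed none. The share of all genes passing at least 1 was not counted, and the comparisons share arrays.

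Genes that work with the members were counted from lists drawn up by function. Late G1, set against the other arrests, had 4 of 6 genes of the passenger complex and spindle kinases passing, all lower: the kinases PLK1 (-3.74 ± 0.44), AURKA (-2.95 ± 0.50) and AURKB (-2.26 ± 0.48), and survivin, BIRC5 (-3.09 ± 0.37), with limma adjusted p-values of 0.000245, 0.0067, 0.0323 and 0.000245. Among 11 mitotic motors 3 fell, KIF20A (-3.83 ± 0.59), KIF4A (-3.67 ± 0.70) and KIFC1 (-2.98 ± 0.44). Over all genes 0.706% passed in that comparison. None of the measured 14 augmin and gamma-tubulin genes, 10 cohesin genes or 11 cortical ring and abscission genes passed there by limma, with 2, 1 and 3 at an unadjusted p below 0.05 (10.5% of all genes) and medians of -0.51, -0.07 and -0.23. The same 4 kinase-list genes and 3 motors were higher in G2/M than in late G1, led by PLK1 (5.60 ± 0.55, adjusted p = 4.92e-05) and KIF20A (4.89 ± 0.73, adjusted p = 0.00267). In G2/M against the other arrests, AURKA (3.02 ± 0.50, adjusted p = 0.0404) and PLK1 (3.26 ± 0.44, adjusted p = 0.00407) passed. Against CDT+DHT, G2/M was higher in AURKA (3.34 ± 0.63), the motor KIF11 (3.56 ± 0.73), the cohesin subunit SMC1A (2.98 ± 0.63) and the septin SEPTIN11 (4.27 ± 0.91), with limma adjusted p-values of 0.0301, 0.0409, 0.044 and 0.0469. Late G1 was lower than CDT+DHT in PLK1 (-4.89 ± 0.55), BIRC5 (-3.64 ± 0.46), KIF20A (-3.28 ± 0.73) and SEPTIN9 (-2.35 ± 0.49), and lower than CDT in PLK1 and BIRC5. Over all genes, 0.483% passed in G2/M against late G1, 0.0271% in G2/M against the other arrests and 0.44% in G2/M against CDT+DHT. For late G1 the shares were 0.516% against CDT+DHT and 0.103% against CDT.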

How the data were processed

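Per the labels' protocols and the submitters' processing notes, RNA from 20 LNCaP samples was hybridised to 1-colour Affymetrix human gene arrays, and the authors deposited linear intensity values per transcript cluster, made with Affymetrix Expression Console 1.1. How probes were summarised, whether arrays were normalized to one another and the build: not given in the sources used here. Values were read as linear because each array's highest value lay between 7643 and 16854, beyond any log2 scale (medians 5.44 to 9.08, 0 values at or below 0), and log2(intensity + 1) was used as it stood. No detection call was used, and the number of arrays limits the precision.

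Of 33297 clusters, 19460 had 1 gene symbol, 1754 several and 12083 none or no entry; the brightest cluster by mean over arrays stood for each of 18417 genes. The test was limma's moderated one (limma 3.58.1, R 4.3.3, default eBayes settings, a coefficient for each group, all 20 arrays, no block), with Benjamini-Hochberg adjustment over all genes, in 20 comparisons, and the code was tested on simulated data. Steps were simulated in late G1 against CDT and in G2/M against early S. In both, 0% of log2 steps of 1 and 8% of steps of 2 were recovered. Of steps of 3, 48% and 34% were, so 0 members passing does not mean no change. Of the simulated calls, 8.22% and 3.28% were genes left unchanged. The simulated noise was independent between genes and arrays, with no floor and no shared axis of variation, so recovery in the real data may differ. Alternatives were 12 settings and the omission of each array. Members and lists were chosen with earlier results of these data known. Any member could be named; by rule, full statistics went to the 5 largest passing members per direction and the 2 largest that did not pass, and at most 3 passing genes were named per other list. Further members with statistics, and AURKB past that limit, were chosen after their values were seen.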

Additional observations from a re-analysis of the deposited data

Results flagged for a closer look

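A set of 13 members, CDCA3, CIT, GTSE1, MKI67, NCAPD2, NCAPG, NCAPH, NUSAP1, PRC1, RACGAP1, TACC3, TOP2A and TPX2, had a mean above CDT in G2/M and below CDT in late G1, and the difference between the 2 arrests passed in each of these 13. These 13 were picked by that contrast, so their counts are a description: in 12 every G2/M array was above the CDT arrays, with NCAPH the exception, and in 9 every late G1 array was below them. The exceptions in late G1 were CIT, NUSAP1, RACGAP1 and TPX2. Over all 39 members the counts were 23 and 14, and over all genes 6.63% and 10.1%. Both differences use the same CDT arrays, so the tested quantity is the direct contrast of G2/M with late G1. Against CDT itself, CDCA3 in late G1 was the 1 difference among these that passed.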

How the results depend on the processing

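No called difference changed sign in any setting. The residual score is each array's place on the main axis of within-group variation, taken from these same values. As a covariate it absorbs residual spread by construction, and the 4 arrays that stand apart were picked on it. More calls in those 2 settings are thus no independent check. Counts of members called moved as follows. In late G1 against CDT (1), 2 passed with quantile normalization or with trend and robust moderation, 3 among the brighter genes alone, 6 with array weights, 5 with the residual score as a covariate and 0 when the fit held the compared groups alone. In late G1 against CDT+DHT (2), 1 passed with the mean of a gene's clusters or the replicate block, 8 with array weights, 5 with the score and 0 with the compared groups alone. In G2/M against CDT+DHT (4), 7 passed with quantile normalization, 8 among brighter genes, 13 with a constant of 16, with trend and robust or with the compared groups alone, 19 with array weights, 0 with the replicate block, 9 without the 4 arrays that stand apart and 20 with the score. In late G1 against the other arrests (13), 23 passed without the 4 arrays and 20 with the score. In G2/M against late G1 (13), 21 passed with array weights or without the 4 arrays, 22 with the score and 6 with the compared groups alone. In the F test (6), 10 passed among brighter genes, 12 with trend and robust, 16 with array weights, 17 with the score and 2 with only the arrests. Among comparisons at 0, G2/M against the other arrests gave 1 with quantile normalization, among brighter genes or without the 4 arrays, 3 with a constant of 16 or trend and robust, 4 with array weights and 8 with the score. G2/M against CDT gave 2 with a constant of 16 and 4 with the score, and G2/M against early G1 gave 1 with that constant. With array weights 1 member passed in late S against CDT, 1 in early G1 against CDT+DHT and 8 in late S against CDT+DHT, and with the score 2, 4 and 3 passed in early G1, early S and late S against CDT+DHT. The share of all genes called in each of these settings is not given here. Whether a move is particular to the members therefore cannot be read from these counts. The cause was not tested.

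Leaving out each array in turn gave 0 to 2 in late G1 against CDT, 1 to 3 in late G1 against CDT+DHT, 0 to 10 in G2/M against CDT+DHT, 3 to 16 in late G1 against the other arrests, 6 to 16 in G2/M against late G1, 0 to 1 in G2/M against the other arrests, 1 to 9 in the F test and 0 elsewhere. The F test count was 2, 3 and 2 without G2/M replicates 1, 2 and 3, and 1 without late G1 replicate 2 or 3. CDCA3 and PRC1 in late G1 against the other arrests, and MKI67, NUSAP1, PRC1, TOP2A and TPX2 in G2/M against late G1, passed in all 12 settings and all 20 omissions. Member medians in 2 comparisons with no call turned sign without CDT replicate 1, to as low as -0.25 in early G1 and -0.12 in late S against CDT, the latter also without late S replicate 2. Against the other arrests, medians near 0 turned sign as well, in 14 fits for early G1 (-0.28 to 0.48), in 1 for early S (without its replicate 2, -0.22) and in 3 for late S (-0.49 to 0.45). With a constant of 16 all 19 member medians kept their sign except that of early G1 against the other arrests, and the larger ones shrank: from 1.65 to 0.86 in G2/M against CDT, 2.12 to 1.07 in G2/M against CDT+DHT, -2.08 to -0.84 in late G1 against the other arrests and 3.12 to 1.36 in G2/M against late G1. That constant was applied to the span of group means after seeing the data.

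Quantile normalization moved the median of all genes by -0.13 to 0.15 and centring by -0.12 to 0.14. They turned the sign of 19 and 11 of 741 member differences, 0 of them called. Replicate numbers showed no clear pairing of the arrays. Same-numbered deviations correlated between -0.52 and 0.48 (median -0.01), and 5 of 20 arrays correlated best with their own number. With so few arrays per group mean, such deviations cannot settle whether a number marks a shared day or culture. The replicate block changed no other count by over 1.5 times. Dim members, with levels near 0, have folds that depend on the constant added.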
